A study of Mus musculus with 4 samples.

Results

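The genes described here encode the subunits of the mouse proteasome and of its activator caps. They were taken as all probe sets annotated with 1 gene symbol beginning with Psma, Psmb, Psmc, Psmd or Psme, which gave 53 of the 12403 gene probe sets on the array. Of these, 51 probe sets belong to subunits, for 40 genes, and 2 share only the letters of the name (Psmc3ip, a recombination factor, and Psme3ip1, a partner of a cap protein). Expression had been measured in c17.2 cells, a mouse line of immortalised neural stem cells, in total RNA labelled with biotin and hybridised to Affymetrix arrays. Clone 42 and clone 48 were stable lines transfected with the orphan nuclear receptor Nurr1 (gene Nr4a2), and puroB and puroD were stable lines carrying the empty puromycin vector. All 4 were clonal lines of the same parent, and no array of the untransfected line was used here. Clone 42 had been paired with puroB and clone 48 with puroD for their similar rates of proliferation, as the sample descriptions give it; the series' design text writes clone 42 in both pairs, although it abbreviates the one matched with puroD as c48, and the descriptions were followed. Each clone had 1 array, so that a group is 2 clones. Of the promoter that drove Nurr1, nothing is given in the sources used here.

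The proteasome is the protease that degrades proteins tagged with ubiquitin in the cytosol and nucleus of every cell. Its barrel-shaped core is made of outer rings of alpha subunits, which form the gate, and inner rings of beta subunits, of which Psmb5, Psmb6 and Psmb7 carry the catalytic sites. A regulatory cap binds the barrel's ends: its base holds the ATPases (Psmc genes) that unfold and thread the substrate, and its lid removes the ubiquitin chain. In immune cells and after interferon, the counterparts Psmb8, Psmb9 and Psmb10 replace the catalytic subunits and form the immunoproteasome, which cuts peptides for antigen presentation. Other caps (Psme genes) open the barrel without ubiquitin.

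Of the 51 subunit probe sets, 42, for 36 genes, had a signal above 145.05 on at least 2 of the 4 arrays and were tested. On all 4 arrays 41 of these 42 exceeded that signal, the exception being one Psmb5 probe set (160559_at). The other 9 were not tested: Psmb8, Psmb9, Psmc4 and Psmd2, whose only probe sets these were, 2 further probe sets of Psmb4 and 1 each of Psmb1, Psmc5 and Psme1. Of the 2 genes that only share letters, Psme3ip1 was tested, with signals of 1396, 1613, 1428 and 1518 in clone 42, clone 48, puroB and puroD, and Psmc3ip, at 18.2 to 114.5, was not. Probe sets whose names carry _f_, _s_, _i_ or _r_ hold probes that can match related sequences or that broke the array's design rules. RefSeq names 6 proteasome pseudogenes in the mouse, of Psma5, Psmb5, Psmb6 and Psmb7. The levels of these genes, and of those read by such probe sets (Psma3, Psmb4, Psmc3, Psmd9, Psmd12 and some of Psmd11), are therefore uncertain. Differences are given as log2 ratios of signals, and fold changes as ratios of signals.

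All arrays had been scaled to 1 trimmed mean, and their median signals lay between 125.6 and 160.1. For the actin control, the 3' over 5' ratio, which rises as RNA breaks down, ran from 1.51 in puroB to 2.41 in clone 48, with 1.68 in clone 42 and 2.0 in puroD. The transcripts spiked in at hybridisation (6 probe sets) were lowest in puroB at 6 of 6. The dimmest of them read 126.7 in puroB, under the filter of 145.05, where the brightest control not spiked in read 49.8. Nestin, a neural stem cell marker, was well detected at 3030 to 3720 in all clones, whereas Pax6 and Vim, other markers of these cells, stayed at 60 or under and 84.6 or under. Summed over the 7 neural stem genes found on the array, 4 of them tested, signals were between 4814 and 5966, most of which was nestin. Fabp7, a fatty acid binding protein of radial glia, differed more: it was 565 in clone 42 and 157 in clone 48, but 1293 in puroB and 1539 in puroD. Of the leukocyte and microglial markers Ptprc, Aif1 and Itgam, none exceeded 21.2 on any array, and the 8 genes of that list, 3 of them tested, summed to between 598 and 959.5. Of the same list, Cd14, a monocyte surface protein, was detected at 308, 171, 329.8 and 264 in clone 42, clone 48, puroB and puroD, one Csf1r probe set at 182 to 233 and one C1qb probe set at 78.4 to 188; C1qa stayed at 109 or under. Nr4a2 itself was not higher in the clones transfected with it: its probe set 92248_at read 320 and 206 in clones 42 and 48, and 485 and 254 in puroB and puroD. The mean log2 difference of that probe set was -0.45 ± 0.30 (SE, n = 2 clones per group; limma adjusted p = 0.871), and its other probe set (92249_g_at) was lower in both pairs, at -0.98 and -0.91, with a mean of -0.95 ± 0.34 (limma unadjusted p = 0.0151, adjusted p = 0.453). These lines are therefore named Nurr1-labelled clones by their label alone. The stretch of transcript read by its probes was not analysed here.

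No subunit transcript passed the test between the Nurr1-labelled and the control clones. With arrays scaled to their trimmed mean, puroB had the lowest signal of the 4 lines for most subunits, an order that turned when the arrays were scaled to the spiked controls. In limma with Benjamini-Hochberg adjustment over all 6419 tested probe sets, 0 of the 42 subunit probe sets passed 0.05 between the labels, against 0.109% of all tested probe sets, and 0 passed an unadjusted p of 0.05, against 7.38%. Their mean differences ran from -0.69 to 0.71, with SEs between 0.29 and 0.42, and adjusted p-values ran from 0.767 to 1.00. The 95% intervals of single members reached as far as -1.59 and 1.5. Differences of that size are therefore not excluded for single members with 2 clones per group. The mean of -0.69, the SE of 0.42 and the bound of -1.59 belong to a dim Psmb5 probe set (160559_at). Only the control arrays brought that probe set past the filter, and the next lowest mean was -0.53 (Psmd5). Between the matched pairs, 0 of 42 passed at an adjusted 0.05 in limma, against 0.483% of all tested probe sets, and 1 (Psma1) had an unadjusted p under 0.05, against 10.6%.

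In pair 1, clone 42 exceeded puroB at 31 of the 42 subunit probe sets (45.0% of all tested probe sets were higher there). In pair 2, clone 48 exceeded puroD at 23 of 42 (47.0% of all). Both Nurr1-labelled clones exceeded their matched control at 18 of 42 (21.7% of all), and both were lower at 6 (29.7% of all). In 0 of the 42 did both pairs differ by at least 0.5 in the same direction, which 6.28% of all tested probe sets did; Psmd3 came nearest, at -0.55 and -0.49. Both Nurr1-labelled arrays lay above both control arrays at 10 of 42 (12.8% of all) and below both at 4 (17.9% of all). The median log2 ratio over the 42 was 0.23 in pair 1 and 0.01 in pair 2, against -0.06 and -0.03 over all tested probe sets.

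**Figure D1:**
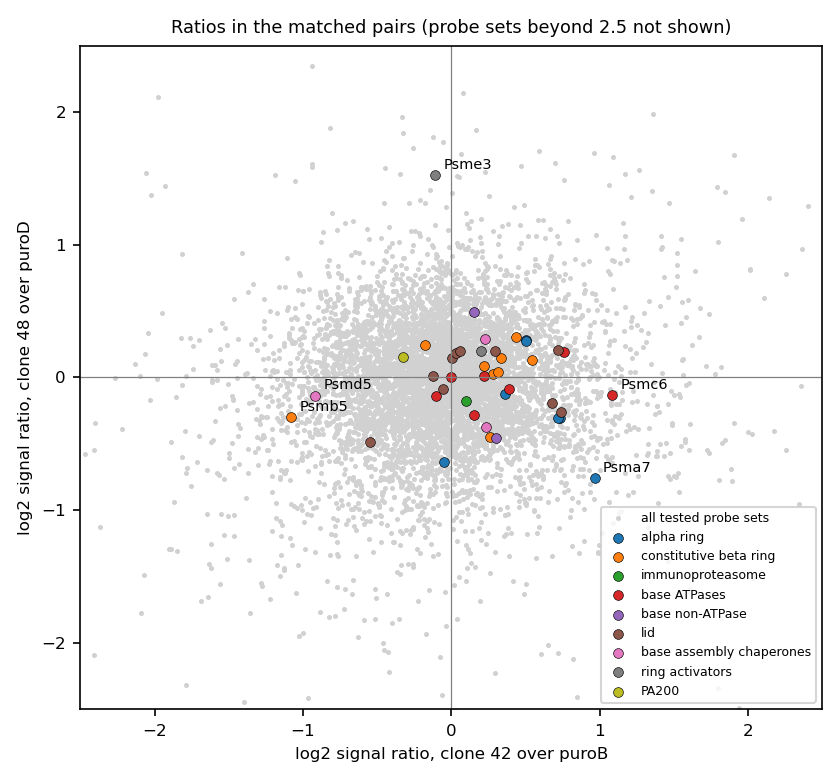
Log2 signal ratio of each tested subunit probe set in pair 1 (horizontal) and pair 2 (vertical), coloured by particle, over all tested probe sets in grey. With arrays scaled to their trimmed mean (not to the spiked controls) most subunits lie right of 0, in pair 1, but are spread about 0 in pair 2, where Psme3 stands highest at 1.52.

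The control clones differed from each other at most subunits. PuroB was below puroD at 34 of 42 subunit probe sets (43.9% of all tested probe sets), with a median difference of -0.36, against 0.07 over all tested probe sets. It was the lowest of the 4 arrays at 28 of 42 (66.7%), against 20.3% of all tested probe sets, while clone 42 was lowest at 7 (28.6% of all) and clone 48 at 3 (28.1% of all). The highest array was clone 48 at 17 of 42 (22.5% of all) and puroD at 13 (21.7% of all). With the brightest probe set of each of the 36 genes the medians were 0.25, 0.01 and -0.39 for pair 1, pair 2 and puroB over puroD. The spiked controls, which are exogenous transcripts, were also lowest in puroB, with median log2 ratios of 0.65 in pair 1, -0.72 in pair 2 and -0.97 for puroB over puroD. When the arrays were scaled to the spiked controls instead, the median of the subunits became -0.36, 0.77 and 0.61, and puroB was lowest at 2 of 41. That scaling multiplies each array by 1 factor, so it moves all probe sets alike: puroB was then lowest at 1.8% of all tested probe sets. The subunits' medians minus the median of all tested probe sets were 0.29, 0.05 and -0.43, a difference that such a factor leaves as it is. The part of the spiked controls, hybridisation or RNA quality in the result was not tested. With quantile normalization, median scaling and cyclic loess, puroB was below puroD at 34, 36 and 33 of 41 subunit probe sets, against 48.1%, 56.4% and 48.1% of all tested probe sets, and with the spiked scaling at 2 of 41, against 3.0%. The directions that follow are those of the arrays scaled to their trimmed mean. Each line has 1 array, so a difference between lines and one between arrays cannot be told apart, and fewer cells of a type cannot be told apart from less RNA per cell.

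**Figure D2:**
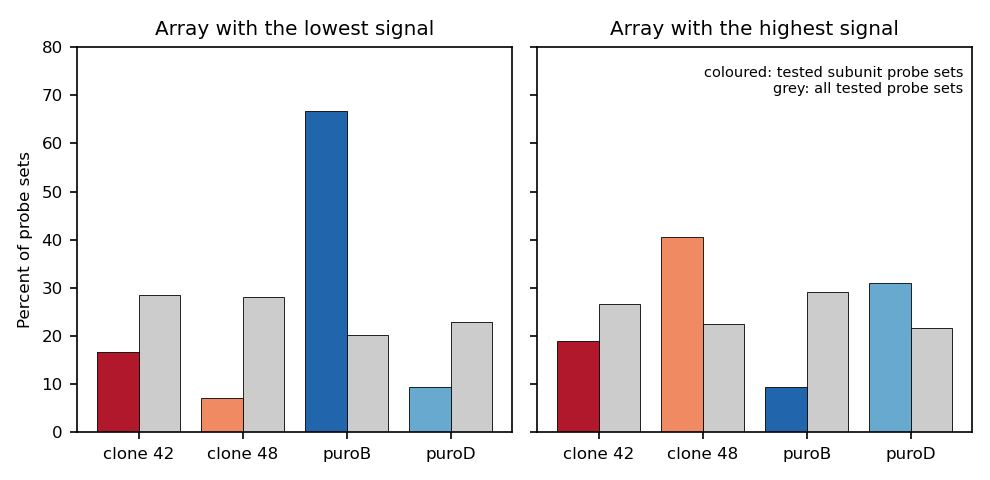
Percent of the 42 tested subunit probe sets (coloured) and of all 6419 tested probe sets (grey) that had their lowest (left) and highest (right) signal on each array. With arrays scaled to their trimmed mean (not to the spiked controls) puroB holds the lowest signal for 66.7% of subunit probe sets against 20.3% of all.

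**Figure D3:**
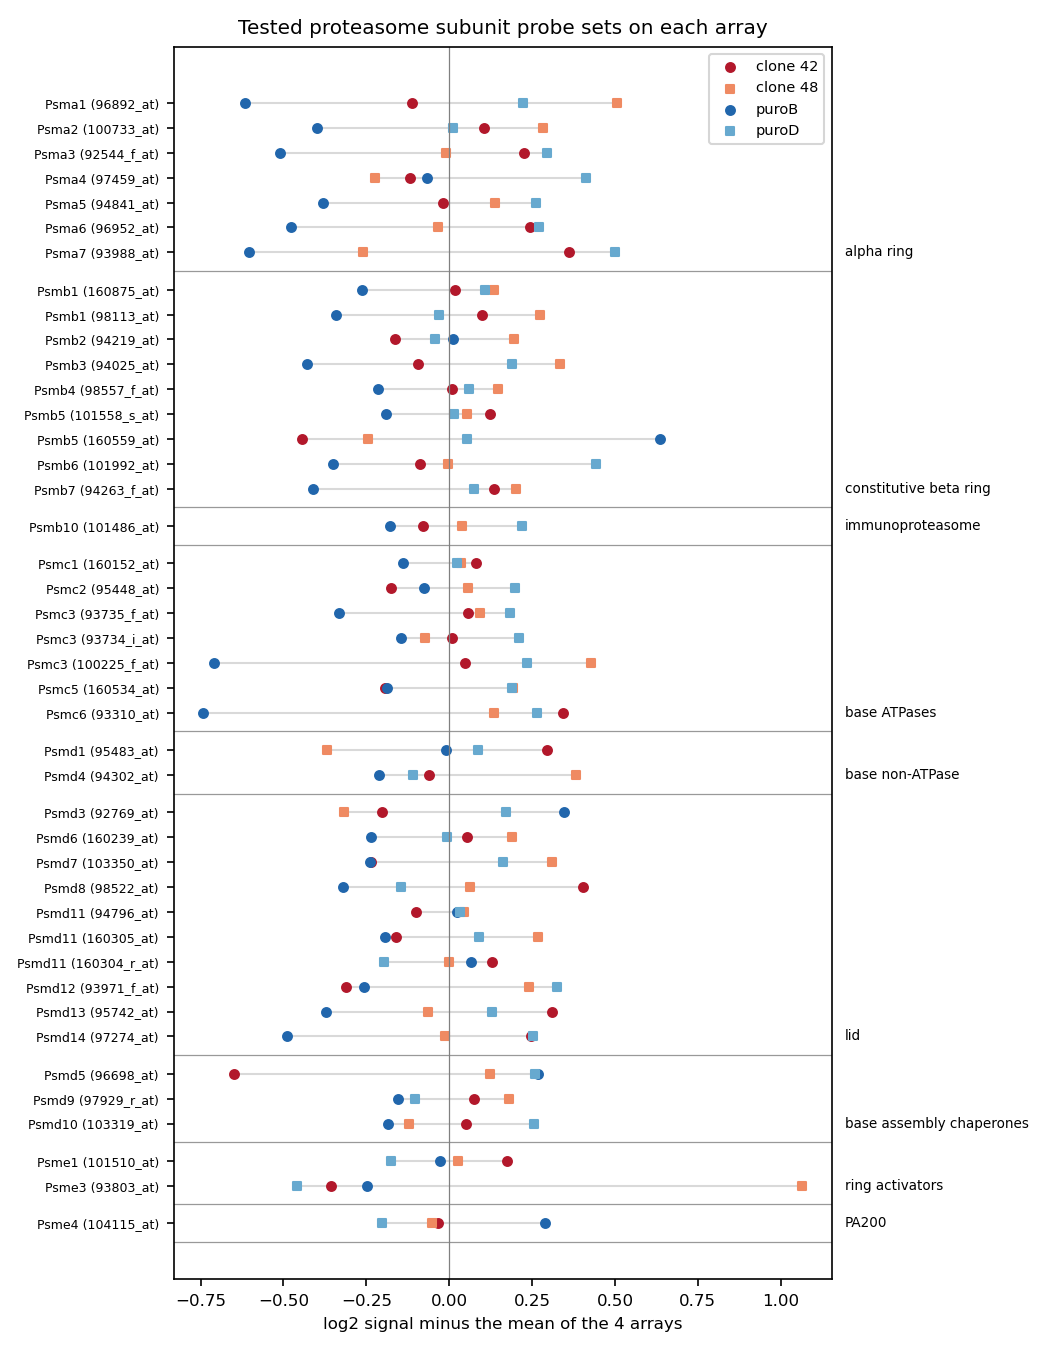
Log2 signal of each tested subunit probe set on each array minus its mean over the 4 arrays, ordered by particle. PuroB lies to the left in most rows of the core and base with arrays scaled to their trimmed mean (not to the spiked controls), whereas Psme3 stands alone at the right in clone 48.

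The outer alpha ring showed this difference in every member. Its 7 genes, all tested, had signals in puroB below those in puroD at 7 of 7, against 43.9% of all tested probe sets. With the spiked scaling this held at 1 of 7, against 3.0% of all. PuroB was the lowest array for 6 of 7 (20.3% of all), the exception being Psma4, where clone 48 was lowest. The median log2 ratio was 0.50 in pair 1, -0.31 in pair 2 and -0.75 for puroB over puroD, which the spiked scaling turned to 0.23. Psma7, an alpha ring subunit, had the largest difference between the control clones, with signals of 3270.2 (clone 42), 2125 (clone 48), 1674 (puroB) and 3600.3 (puroD). PuroB lay 2.15-fold below puroD for Psma7, and the pairs ran in opposite directions, at 0.97 and -0.76. Psma7 and Psmc6 were the only 2 of 42 subunit probe sets that differed 2-fold or more between the control clones (6.06% of all tested probe sets).

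Psma1, another alpha subunit, had signals of 558 (clone 42), 858 (clone 48), 394 (puroB) and 705 (puroD). Both clones of pair 1 lay below both of pair 2. The pair difference (pair 1 minus pair 2) was -0.73 ± 0.29 (SE; limma unadjusted p = 0.0235, adjusted p = 0.340), and the Nurr1-label difference was 0.39 ± 0.29 (limma adjusted p = 0.895). The other 5 alpha genes, Psma2 to Psma6, ran from -0.05 to 0.74 in pair 1 and from -0.64 to 0.27 in pair 2.

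The inner beta ring of the constitutive core, with 9 tested probe sets for 7 genes, showed a smaller median than the alpha ring, at 0.28 in pair 1, 0.09 in pair 2 and -0.31 for puroB over puroD (0.64 with the spiked scaling). PuroB was lowest at 7 of 9, against 20.3% of all tested probe sets. Over the core as a whole (16 tested probe sets), puroB was lowest at 13, and over the regulatory cap's base and lid (19) at 12. Among the subunits with catalytic sites, Psmb5, which carries the chymotrypsin-like activity, had signals of 3641 (clone 42), 3474 (clone 48), 2932 (puroB) and 3382 (puroD) at its brighter probe set (101558_s_at). Psmb6, with the caspase-like activity, had 2351, 2492, 1959 and 3398 in that order, and Psmb7, with the trypsin-like activity, had 1626, 1702, 1112 and 1559. PuroB was the lowest array for all of these, and the Nurr1-label differences were 0.18 ± 0.31 for Psmb5, -0.09 ± 0.32 for Psmb6 and 0.34 ± 0.31 for Psmb7 (SE; limma adjusted p = 0.989, 0.995 and 0.933).

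The other Psmb5 probe set (160559_at) was dim, with 103, 118, 218 and 146 in clone 42, clone 48, puroB and puroD, of which the clone 42 and clone 48 values were under the filter of 145.05. Here puroB was the highest array and clone 42 lay 2.12-fold below it, so the pair 1 difference of -1.08 ran against the brighter probe set's 0.31. Its Nurr1-label difference was -0.69 ± 0.42 (limma adjusted p = 0.841), which differs by under 1 from that of the brighter one. The filter admitted this probe set only through the control arrays, where it was higher, so its differences give no evidence of a change. Counted all the same, it was with Psmc6 1 of 2 subunit probe sets at 2-fold or more in pair 1 (8.35% of all tested probe sets). The remaining constitutive members, Psmb1 to Psmb4, ran from -0.18 to 0.44 in pair 1. The Psmb1 and Psmb4 probe sets that were not tested lay at 51 or under and at 109 or under.

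The promoters of Psmb5 and Psmb6 are shown because they hold the letters of the antioxidant response element that the factor Nfe2l1 is known to use at proteasome genes. Sequences are the 250 bases before the annotated start, from RefSeq's GRCm38.p6, printed 5' to 3' on the gene's strand, with the match in capitals. The letters searched were TGACNNNGC on either strand.

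Psmb5 promoter, chr14:54617996-54618245, minus strand: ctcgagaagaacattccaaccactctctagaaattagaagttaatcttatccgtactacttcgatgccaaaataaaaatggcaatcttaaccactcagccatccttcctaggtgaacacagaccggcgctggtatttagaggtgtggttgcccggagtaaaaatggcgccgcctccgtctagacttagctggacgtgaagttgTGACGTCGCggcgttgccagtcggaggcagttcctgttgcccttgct
Psmb6 promoter, chr11:70525107-70525356, plus strand: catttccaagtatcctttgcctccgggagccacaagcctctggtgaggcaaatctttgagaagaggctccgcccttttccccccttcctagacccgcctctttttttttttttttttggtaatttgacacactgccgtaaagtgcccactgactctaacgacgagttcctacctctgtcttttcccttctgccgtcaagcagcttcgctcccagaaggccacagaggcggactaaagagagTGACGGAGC

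The match ends 39 bases before the start of Psmb5 and 1 base before that of Psmb6. Over the 36 promoters found for 34 of the 40 subunit genes, 5 held the letters (13.9%), against 10.2% of all 32841 promoters of the same length. The CCAAT letters, bound by the NF-Y factors, were in 13 of 36 (36.1%) against 33.9%. These are matches of letters, not sites.

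Immunoproteasome transcripts were at background in all 4 clones, except Psmb10. Psmb8, the counterpart of Psmb5, had signals of 18.1 (clone 42), 9.3 (clone 48), 22.4 (puroB) and 11.5 (puroD), and Psmb9, the counterpart of Psmb6, had 15.2, 17.0, 15.5 and 13.4. The brightest control that was not spiked in read 62.7, 39.1, 49.8 and 59.1 on those arrays, so both lay under background on every array and give no ratio. Psmb10, the counterpart of Psmb7, was detected at 565 (clone 42), 613 (clone 48), 527 (puroB) and 694 (puroD). The control clones bracketed both Nurr1-labelled clones, and the label difference was -0.04 ± 0.29 (95% interval -0.66 to 0.58; limma adjusted p = 0.997), with a sign that turned under other scalings.

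**Figure D4:**
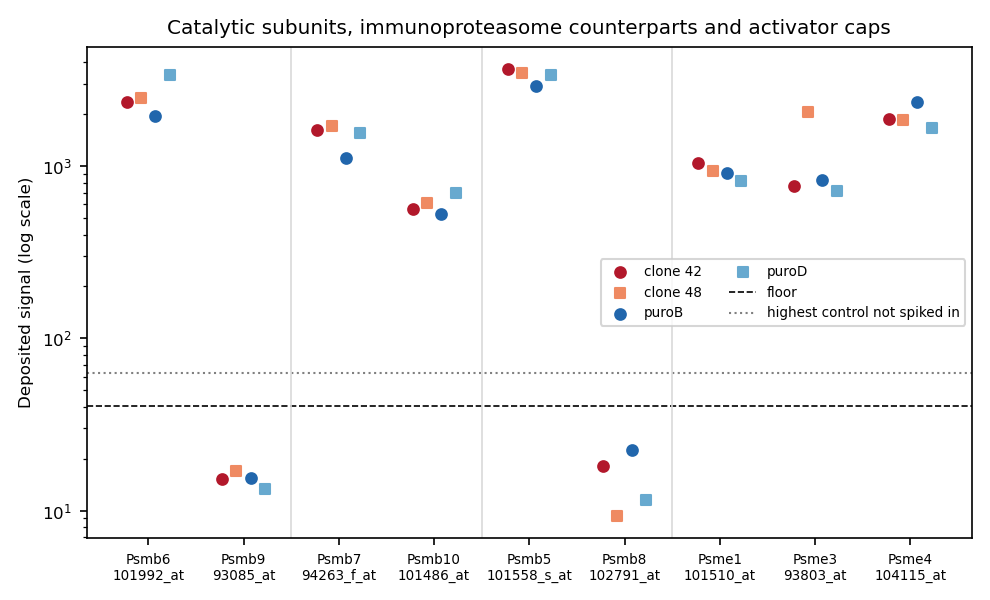
Deposited signals (log axis) of the catalytic subunits, their immunoproteasome counterparts and the activator caps on the 4 arrays, with the floor (dashed) and the highest control not spiked in (dotted). Psmb8 and Psmb9 lie below both lines on every array, and Psme3 in clone 48 stands apart from the other arrays.

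Promoters of the 3 immunoproteasome genes are printed for contrast with the constitutive ones, with matches to the interferon-gamma activated site (TTCNNNGAA) and to CCAAT in capitals.

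Psmb8 promoter, chr17:34197945-34198194, plus strand: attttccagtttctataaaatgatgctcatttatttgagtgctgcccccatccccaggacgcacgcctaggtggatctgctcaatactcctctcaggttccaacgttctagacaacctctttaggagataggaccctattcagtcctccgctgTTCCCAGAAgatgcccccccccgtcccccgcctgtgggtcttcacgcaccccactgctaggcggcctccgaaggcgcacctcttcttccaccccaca
Psmb9 promoter, chr17:34187331-34187580, minus strand: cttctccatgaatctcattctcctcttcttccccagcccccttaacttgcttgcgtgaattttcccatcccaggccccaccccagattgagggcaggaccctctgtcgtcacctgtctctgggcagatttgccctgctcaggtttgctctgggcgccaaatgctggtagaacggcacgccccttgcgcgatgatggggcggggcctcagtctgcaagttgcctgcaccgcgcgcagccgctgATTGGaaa
Psmb10 promoter, chr8:105938393-105938642, minus strand: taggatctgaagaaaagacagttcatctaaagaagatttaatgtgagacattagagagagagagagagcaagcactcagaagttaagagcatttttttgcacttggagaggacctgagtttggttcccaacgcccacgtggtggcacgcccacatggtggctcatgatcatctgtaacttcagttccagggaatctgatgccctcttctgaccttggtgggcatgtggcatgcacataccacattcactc

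Only the Psmb8 window held TTCNNNGAA, 1 of 36 subunit promoters (2.78%) against 7.02% of all promoters. The Psmb9 window held a CCAAT match on the opposite strand, and the Psmb10 window held none of the 4 motifs searched. The interferon-stimulated element, searched as GAAA, any 2 bases and GAAA on either strand, was in 3 of 36 (8.33%) against 2.98% of all, namely Psmb3, Psmd4 and Psmd9, and in none of these immunoproteasome windows. The Psmb9 entry shares 275 of its 300 bases with that of Tap1, the peptide transporter gene read from the opposite strand.

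The base ATPases had 7 tested probe sets for 5 of the 6 genes. Their medians were 0.22 in pair 1, -0.09 in pair 2 and -0.38 for puroB over puroD (0.60 with the spiked scaling). PuroB was lowest at 5 of 7, against 20.3% of all tested probe sets. Psmc6, another of the ATPases, differed by 1.08 in pair 1 (0.49 with the spiked scaling), with signals of 5474 (clone 42), 4737 (clone 48), 2583 (puroB) and 5189.7 (puroD). PuroB stood alone here: clone 42 was 2.12-fold above it and puroD 2.01-fold, while clone 48 and puroD differed by -0.13. The Nurr1-label difference was 0.48 ± 0.35 (limma adjusted p = 0.895). For the ATPase Psmc3, 3 probe sets gave pair 1 differences of 0.39, 0.15 and 0.76, all with puroB lowest. Psmc1, Psmc2 and Psmc5 stayed within -0.10 to 0.22 in pair 1, and Psmc4, at 41.4 to 79.7, was not tested.

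The Psmc6 promoter is shown because this ATPase differed 2-fold or more both in pair 1 and between the control clones. The capitals mark the letters of the antioxidant response element on the opposite strand.

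Psmc6 promoter, chr14:45329574-45329823, plus strand: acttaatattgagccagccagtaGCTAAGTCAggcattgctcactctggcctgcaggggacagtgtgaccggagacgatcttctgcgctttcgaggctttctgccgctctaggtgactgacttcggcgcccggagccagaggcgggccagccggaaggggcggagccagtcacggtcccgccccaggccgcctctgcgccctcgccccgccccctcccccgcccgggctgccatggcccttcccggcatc

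Of the other base subunits, Psmd1, a scaffold, had 2535 (clone 42), 1601 (clone 48), 2053 (puroB) and 2194 (puroD), and Psmd4, a ubiquitin receptor, had 3172, 4316, 2858 and 3065. They ran in opposite directions in pair 2, at -0.45 and 0.49. Psmd2, at 55.7 or under, was not tested.

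The lid was covered through its 8 genes with Psmd symbols, by 10 tested probe sets. It had the smallest pair 1 median of the larger particles at 0.05, with 0.08 in pair 2 and -0.26 for puroB over puroD (0.73 with the spiked scaling). PuroB was lowest at 6 of 10, against 20.3% of all tested probe sets. Psmd14, the deubiquitinase of the lid, had 2654 (clone 42), 2217 (clone 48), 1592 (puroB) and 2664 (puroD), again with puroB alone at the low end. Psmd3, a structural lid subunit, was among those where puroB was not lowest. It was 2195 (clone 42), 2028 (clone 48), 3212 (puroB) and 2842 (puroD), so both Nurr1-labelled clones lay below both controls. Its label difference was -0.52 ± 0.31 (limma adjusted p = 0.841). For Psmd11, 3 probe sets had label differences of -0.06, 0.11 and 0.13, none past the test.

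Of the 3 chaperones that assemble the base, Psmd5 had 625 (clone 42), 1068 (clone 48), 1180.0 (puroB) and 1174 (puroD), with clone 42 alone low at -0.92 in pair 1 against -0.14 in pair 2. Its label difference was -0.53 ± 0.32 (limma adjusted p = 0.841). Psmd9 and Psmd10 had pair 1 differences of 0.23 each and pair 2 differences of 0.29 and -0.38.

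**Figure D5:**
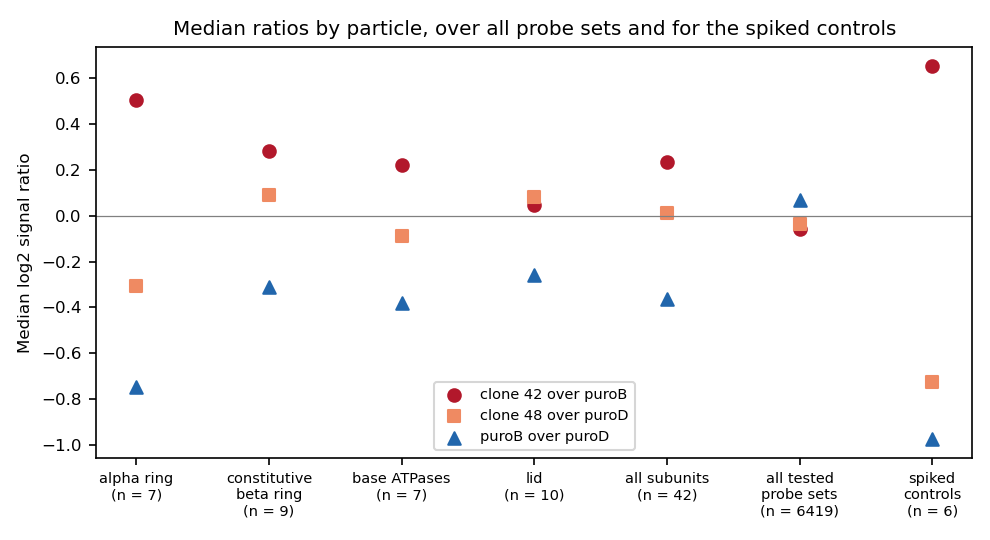
Median log2 ratio of each particle, of all tested probe sets and of the spiked controls, in pair 1, pair 2 and for puroB over puroD. The alpha ring has the lowest median of the larger particles for puroB over puroD (-0.75), a sign that turns with the spiked scaling; the spiked controls are at -0.97 and all tested probe sets at 0.07.

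The alternative caps did not follow the core. Psme3, the nuclear activator cap also known as PA28 gamma, had 769.7 (clone 42), 2058 (clone 48), 829 (puroB) and 716 (puroD). Clone 48 stood alone, 2.87-fold above puroD and 2.67-fold above clone 42, whereas clone 42 differed from puroB by -0.11. Psme3 was the only 1 of 42 subunit probe sets at 2-fold or more in pair 2 (5.39% of all tested probe sets) and also the only 1 between the Nurr1-labelled clones (10.7% of all). The label difference was 0.71 ± 0.37 (95% interval -0.08 to 1.5, limma adjusted p = 0.767). Without clone 48, in a fit that also had no pair block, it became -0.0016.

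The promoter of Psme3 is printed because its transcript was the one that stood apart in clone 48, with a CCAAT match on the opposite strand in capitals.

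Psme3 promoter, chr11:101315963-101316212, plus strand: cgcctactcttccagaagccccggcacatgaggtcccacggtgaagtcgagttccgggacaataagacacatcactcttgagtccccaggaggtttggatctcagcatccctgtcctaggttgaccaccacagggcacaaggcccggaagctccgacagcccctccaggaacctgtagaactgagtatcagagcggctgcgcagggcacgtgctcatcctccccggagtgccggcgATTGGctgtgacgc

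Psme1, the interferon-induced alpha subunit of the other ring activator, was 1043 (clone 42), 940.6 (clone 48), 906 (puroB) and 818 (puroD), with the Nurr1-labelled clones above both controls. Its label difference was 0.20 ± 0.30 (limma adjusted p = 0.977). The partner subunit Psme2 shares its probe sets with Psme2b, so that these 2 were no members; the tested one (100588_at) gave 568, 492, 664 and 582 in the same order, or -0.23 ± 0.29 (limma adjusted p = 0.969). Psme4, the cap PA200, had 1872, 1851, 2344 and 1665, with puroB the highest array, and a label difference of -0.09 ± 0.32 (limma adjusted p = 0.995).

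Related genes were read from 5 lists, and 0 of the tested members of any passed an adjusted 0.05 in limma for the label or for the pair. Of the proteasome's assembly and associated proteins, 10 of 14 were tested. In both pairs 5 of these were higher (21.7% of all tested probe sets) and 2 lower (29.7% of all), and puroB was lowest at 5 (20.3% of all). Pomp, the chaperone of the maturing beta ring, had 3581 (clone 42), 4619 (clone 48), 2538 (puroB) and 3715 (puroD) (0.41 ± 0.31; limma adjusted p = 0.896). Psmg2, which assembles the alpha ring, had 737, 1193, 575 and 801 (0.47 ± 0.29; adjusted p = 0.852). Both again had puroB lowest. Txnl1, a thioredoxin bound to the cap, and Ecpas, an adaptor, had label differences of -0.48 and 0.36.

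Of the factors that control proteasome gene transcription, 7 of 12 were tested. In both pairs 1 was higher (21.7% of all tested probe sets) and 3 lower (29.7% of all), and puroB was lowest at 0 (20.3% of all). Nfe2l1, which raises proteasome genes when the protease is inhibited, had 1623 (clone 42), 1021 (clone 48), 1220.1 (puroB) and 1093 (puroD) (0.16 ± 0.31; limma adjusted p = 0.993). The NF-Y subunits Nfya, Nfyb and Nfyc had label differences of -0.26, -0.50 and 0.37. Of the ubiquitin genes and activating enzymes 2 of 9 were tested, Uba3 and Uba7. Both were lower in both pairs (29.7% of all tested probe sets), with label differences of -0.23 and -0.28. Of the shuttle and unfolding factors 6 of 11 were tested, 3 of which were higher in both pairs (21.7% of all tested probe sets). Sqstm1, the autophagy adaptor p62, had 6418 (clone 42), 2968 (clone 48), 3129.6 (puroB) and 2333 (puroD), with a label difference of 0.69 ± 0.32 (limma unadjusted p = 0.0510, adjusted p = 0.678). Clone 42 stood apart for it. Ubqln2, Vcp and Rad23b had 0.31, 0.22 and 0.19.

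Of the interferon and antigen presentation genes 9 of 22 were tested. In both pairs 0 were higher (21.7% of all tested probe sets) and 3 lower (29.7% of all). Tap1 had 80.7 (clone 42), 109 (clone 48), 163 (puroB) and 167 (puroD), lower in both Nurr1-labelled clones at -0.81 ± 0.44 (limma adjusted p = 0.788). It was near the detection filter of 145.05, which only the control arrays exceeded. The filter thus admitted Tap1 through the group where it was higher, and its difference gives no evidence of a change. Ifngr2, a receptor chain for interferon-gamma, had a label difference of -0.37, B2m, the light chain of the class I molecule, 0.22, and Tapbp, which loads peptides onto it, -0.15.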

How the data were processed

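Total RNA of 4 clonal lines was measured on 1 Affymetrix array each. The deposited intensity values are 1 linear signal per probe set, made by the authors with MAS5, per the submitters' processing notes; its version is not stated in those notes. Each array was rescaled to a trimmed mean of 500 (2% trimmed), signals under the 30th percentile (40.27) were raised to that floor before log2. Probe sets above 145.05 on at least 2 of 4 arrays, without the 66 array controls, were tested (6419). limma 3.58.1 in R 4.3.3 was fitted over all of them with the pairs as blocks, moderated by eBayes with a trend on intensity, and adjusted by Benjamini-Hochberg at 0.05; the fit had 1 residual degree of freedom and 13.1 from the prior. The scripts were tested on simulated data.

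The pairing comes from the labels. Arrays of 1 pair deviated from their groups' means with r = 0.19 over 6419 probe sets, which are not independent. Ratios of single arrays have no test. The variance behind the SEs, intervals and p-values had 1 residual degree of freedom, from the disagreement of the pair differences. The other 13.1 came from the prior, which is drawn from all tested probe sets by intensity. These values therefore do not measure the spread of a single transcript between these clones. The number of arrays limits the precision.

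Symbols came from the platform annotation (10814 probe sets with 1 symbol, 396 with several, 1193 with none). Signals on every array are given for the catalytic, immunoproteasome and Psme genes, for members past an unadjusted 0.05 in either coefficient, and for those at 2-fold or more in a pair or between controls; further rules took members with at least 0.5 in the same direction in both pairs (0 found) and genes whose probe sets differed by over 1 (0 found). Related lists gave up to 4 genes of the smallest p. Psma8 and Psmb11 were not analysed here. Psmd1, Psmd3, Psmd4, Psmd5, Psmd14 and Psme3ip1, named outside these rules, were chosen after their values were seen. The members and lists were chosen with earlier results of these data known.

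Alternatives were quantile normalization, scaling to the array median, other floors and filters, no block, no trend and leaving out each clone. Fits with a clone left out had no pair block. Cyclic loess and scaling to the spiked controls were added after seeing the data.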

Additional observations from a re-analysis of the deposited data

How the results depend on the processing

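In the fit over all tested probe sets, 0 of the subunit probe sets passed an adjusted 0.05 for the label under any alternative with all 4 arrays. For the pair, 0 passed under those alternatives that kept the pair block. Fits without the block gave no pair difference. Scaling to the array median moved the median of all tested probe sets in pair 2 from -0.03 to 0.18. With it the pair 2 medians became 0.23 for all subunits, -0.089 for the alpha ring, 0.32 for the constitutive beta ring, 0.13 for the base ATPases and 0.30 for the lid. Scaling to the spiked controls, chosen after seeing the data, moved the median of all tested probe sets to -0.64 in pair 1, 0.74 in pair 2 and 1.05 for puroB over puroD. With it the subunits' median was -0.36 in pair 1, 0.77 in pair 2 and 0.61 for puroB over puroD. In pair 1 the alpha ring was then at -0.086, the constitutive beta ring at -0.29, the base ATPases at -0.37 and the lid at -0.54. In pair 2 they were at 0.46, 0.87, 0.67 and 0.84. The subunits' median relative to all tested probe sets for puroB over puroD was -0.43 as reported, -0.31 with quantile normalization, -0.29 with cyclic loess (also chosen after seeing the data) and -0.27 with no filter, where 51 subunit probe sets entered; the spiked scaling, 1 factor per array, cannot change it beyond its filter.

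Where a clone was left out the pair block was dropped too, so those values changed in both respects. The label difference of Psme3 lay between -0.0016 (without clone 48) and the highest value with another clone left out, 1.42. That of Psmb10 ran from -0.24 to 0.16 when a clone was left out, being 0.019 without clone 42 and 0.16 without puroD, and was 0.0061 with quantile normalization, 0.13 with the array median, 0.0068 with cyclic loess and 0.045 with the spiked controls. The cause of these changes was not tested. Dropping the block with all arrays kept did not change a label call among the subunits. Of 299 alternative values of signed log2 quantities, 26 changed sign, 10 of them with the spiked scaling and 16 with others. Among the latter, quantile normalization turned the subunits' pair 2 median to -0.02, and the brightest probe set per gene turned the lid's to -0.04. Subunits under the floor of 40.27 on every array, such as Psmb8 and Psmb9, have no ratio.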
